A study of Homo sapiens with 6 samples.

Results

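The genes described here encode the hnRNP and SR proteins, the main families of RNA-binding proteins that decide which exons are kept in a messenger RNA. They were taken by name from the protein-coding genes of the expression table: every HNRNP gene, the SR genes SRSF1 to SRSF11, TRA2A and TRA2B, SRRM1 and SRRM2, and PTBP1, PTBP2 and PTBP3. Of 35750 genes listed, 104 carried such a name. Of these, 64 were hnRNP pseudogenes and 1 was a read-through gene that the table does not class as protein-coding, which left 39 members. They are 21 hnRNP genes, 11 SR genes, 2 TRA2 genes, 2 SRRM genes and 3 PTBP genes, and all 39 were among the 11841 genes tested, those whose FPKM averaged 1 or more (FPKM are fragment counts scaled to gene length and library size).

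The study measured poly(A) RNA of T98G, an established human glioblastoma cell line grown in serum, in 3 libraries labelled shControl and 3 labelled shSLC1A5. The shRNA of the latter is aimed at SLC1A5, the plasma membrane importer of glutamine and other neutral amino acids. The labels give neither the hairpin sequences, the number of hairpins, the time after delivery, nor whether the cells were pools or clones. Whether replicates are separate cultures is not stated either, and every p-value below speaks only of how these libraries vary, which could be technical.

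hnRNP proteins coat nascent transcripts and often keep the spliceosome away from an exon, whereas SR proteins bind exonic enhancers through RNA recognition motifs and recruit spliceosome parts through an arginine- and serine-rich domain. Many of these genes also control their own level: a poison exon or a retained intron sends part of their RNA to nonsense-mediated decay. In glioblastoma, hnRNPA1, hnRNPA2B1 and PTBP1 are known for favouring the M2 form of pyruvate kinase. The table holds 1 value per gene and library, so coding and decay-bound isoforms of a member were not measured apart.

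The 6 libraries held 59327548 to 70802167 counts. SLC1A5 (chr19:46774883-46788594, minus strand) stood at 95, 95.3 and 97.1 FPKM in the shControl libraries and at 87.5, 88.0 and 88.3 FPKM in the shSLC1A5 libraries. It was 9.02% lower, a log2 fold change of -0.14 ± 0.018 (SE, n = 3 per group) with an adjusted p of 1.93e-04 in edgeR's quasi-likelihood test. After a correction for GC content and length, described below, the log2 fold change of this GC-rich gene (61.3%) was -0.35 ± 0.019 (adjusted p 2.91e-07). The groups do not overlap, and the exact 2-sided permutation test over the 6 FPKM gave p = 0.1, the smallest it can give. Of 7 glioblastoma and neural stem cell markers, only VIM at 336 to 397 FPKM and CD44 at 191 to 210 FPKM reached a mean of 1 FPKM, while GFAP, S100B, NES and SOX2 lay at or near 0 in all libraries. B and plasma cell markers summed to 0.233 to 0.554 FPKM in shControl and 6 to 11.2 FPKM in shSLC1A5, with IGHM and MS4A1 at 0 counts in every shControl library and 378 to 729 and 90 to 168 counts in the shSLC1A5 libraries. Endothelial markers summed to 0.0968 to 0.218 and 0.943 to 1.10 FPKM, and neutrophil markers to 0.175 to 0.264 and 0.473 to 66.2 FPKM, high in shSLC1A5 library 1 alone. Red cell markers ran from 0 to 0.0667 FPKM and from 0.0783 to 5.27 FPKM, macrophage markers from 0.28 to 0.429 and from 0.315 to 3.32 FPKM, and T cell markers up to 0.0538 FPKM, with CD3E at 0 throughout. The share of these cells in the member values was not tested. In bulk RNA, fewer cells of a type and less RNA per cell cannot be told apart.

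The splicing factors were abundant in all libraries. Together they made up 0.713% to 0.735% of the summed FPKM, and their median level was 34.46 FPKM against 7.14 FPKM for all protein-coding genes tested. In the shControl libraries HNRNPA1 was highest, at a mean of 163 FPKM, followed by HNRNPAB at 148, HNRNPK at 141, HNRNPA2B1 at 136 and HNRNPA3 at 130 FPKM. SRSF2 at 86.1 FPKM and SRSF1 at 63.5 FPKM were the most abundant SR genes. The lowest members were SRSF8 at 4.54 FPKM, the HNRNPA1 copy HNRNPA1L2 at 4.49 FPKM and PTBP2, the neuronal polypyrimidine tract binding gene, at 1.3 FPKM. Of the 38 pairs of neighbours in this order, 27 had shControl libraries that did not overlap and 11 overlapped. The overlapping pairs included HNRNPM, SRRM2 and SRSF3, at 42.9 to 43.5 FPKM.

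**Figure D1:**
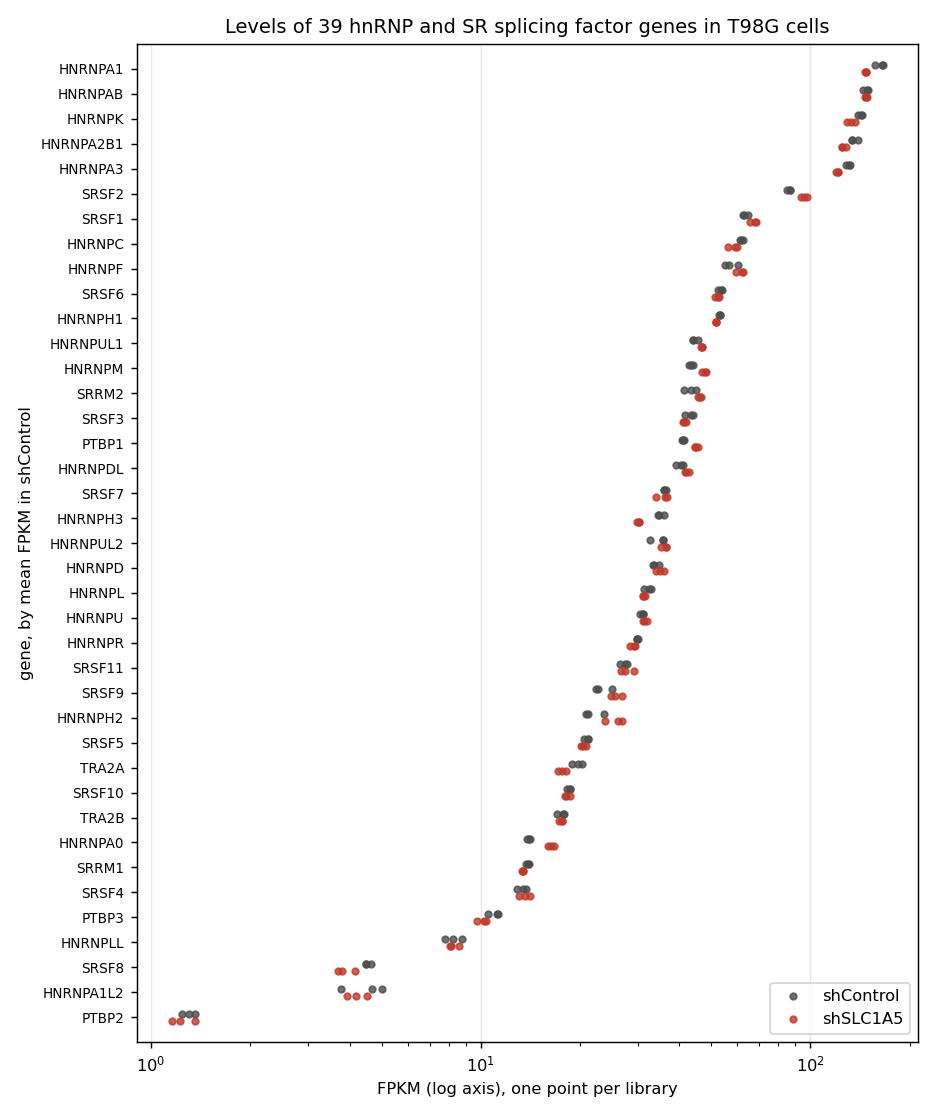
Level of the 39 genes in FPKM on a log axis, 1 point per library, with shControl in grey and shSLC1A5 in red, ordered by the mean in shControl. The points of the 2 groups lie close together for every gene, over a range from PTBP2 near 1.3 FPKM to HNRNPA1 near 163 FPKM.

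Between the groups the family moved by small amounts in both directions. With an adjusted p under 0.05 in edgeR, 8 members rose in shSLC1A5, 12 fell and 19 did not pass, so 51.3% were called against 39.2% of all genes tested (20.2% higher and 19.0% lower). Among genes averaging 10 FPKM or more, which include most members, 54.3% were called, so the members' share was near that of genes as abundant. FPKM did not overlap between groups for 10 members that were higher and 12 that were lower, beside 49.6% of all genes (27.3% all higher and 22.3% all lower). Log2 fold changes ran from -0.24 to 0.21 with a median of -0.031, against -0.006 over all genes. None reached 0.3 in size, a limit under which 82.5% of all genes tested lay. Without shSLC1A5 library 1, which carried the neutrophil markers, 6 members rose and 8 fell.

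**Figure D2:**
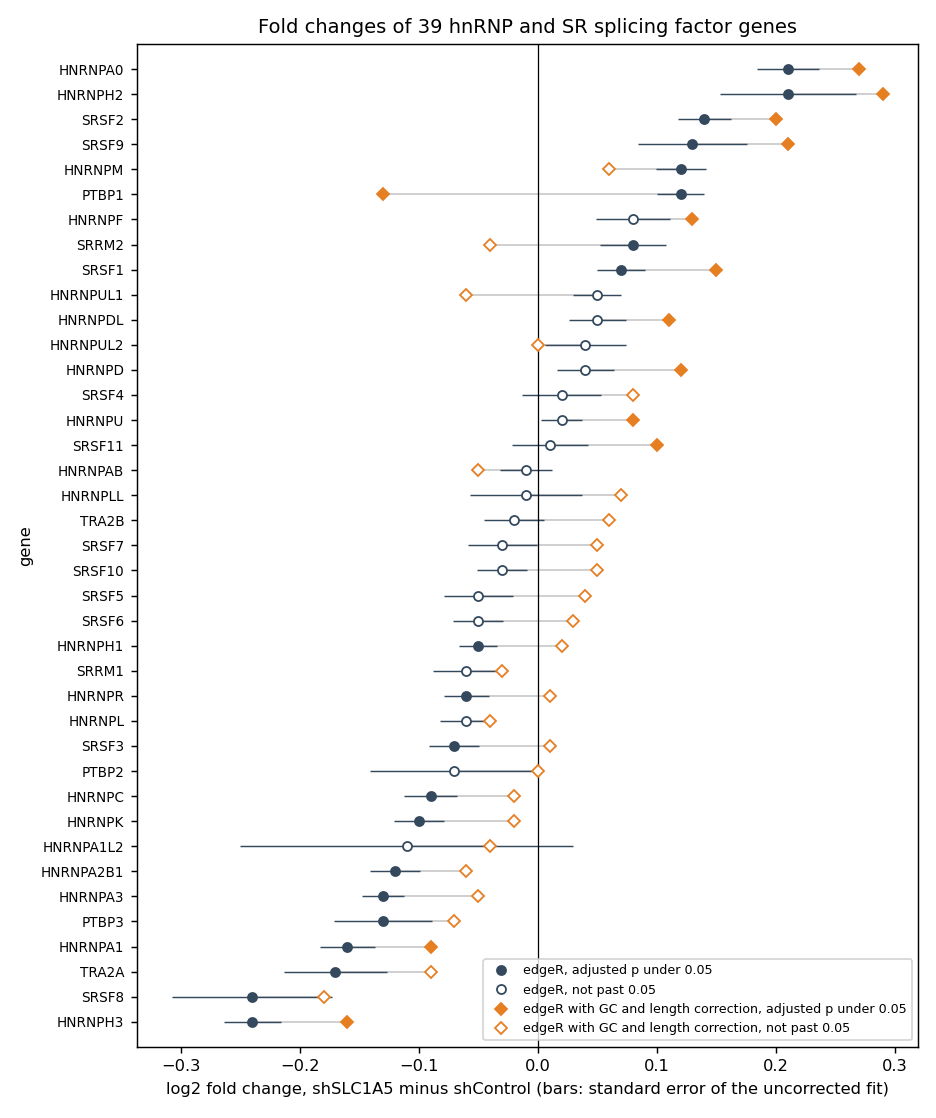
Log2 fold change of each of the 39 genes, shSLC1A5 minus shControl, with circles for the edgeR fit (bars are standard errors, n = 3 per group) and diamonds for the fit corrected for GC content and length; filled symbols passed an adjusted p of 0.05. Most low-GC genes shift right under the correction, and PTBP1 moves from 0.12 to -0.13.

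The fold changes followed base composition, as those of all genes did. Across the 39 members Spearman's rho between the GC content of the longest annotated transcript and the log2 fold change was 0.32, and across 11800 genes it was 0.49. These are descriptions over genes that share the same 6 libraries. The members are poorer in GC than most genes, with a median of 41.2% and a range of 34.7% to 61.7%, against a median of 47.9% in protein-coding genes tested. After a correction for GC content and length, rho was -0.23 over the members and -0.01 over all genes. In the corrected fit 10 members were higher and 3 were lower, beside a background of 25.9% of genes called (11.1% higher and 14.8% lower), and 7 calls were shared with the uncorrected fit. Each result below is therefore given with its corrected value where that changes the call.

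**Figure D3:**
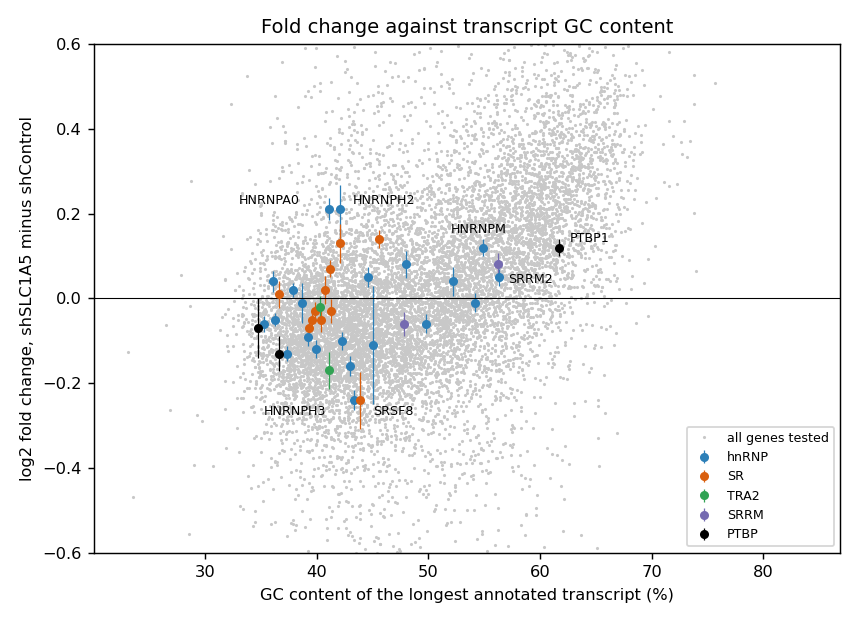
Log2 fold change, shSLC1A5 minus shControl, against the GC content of the longest annotated transcript in percent, with all genes tested in grey and the members in colour by family (bars are standard errors); 418 genes lie outside the axis at 0.6 and are not drawn. Members sit mostly at the low-GC side, and HNRNPA0, HNRNPH2, HNRNPH3 and SRSF8 lie farthest from 0.

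HNRNPA1, HNRNPA2B1 and HNRNPA3, among the most abundant hnRNP genes, were lower in shSLC1A5, the last 2 not past the threshold after the GC and length correction. Proteins of this A/B family bind UAG-rich silencers and shuttle between nucleus and cytoplasm. HNRNPA1 (ENSG00000135486, chr12:54280193-54287088 on GRCh38, plus strand) was at 165, 157 and 166 FPKM in the shControl libraries and at 148, 146 and 147 FPKM in the shSLC1A5 libraries. All shSLC1A5 libraries lay below all shControl libraries, and the mean fell by 10.5%. The log2 fold change was -0.16 ± 0.023 with an adjusted p of 3.29e-04, and -0.09 with an adjusted p of 0.0118 after the GC and length correction.

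HNRNPA2B1, which binds many of the same elements as HNRNPA1, was at 139, 134 and 134 FPKM in shControl and at 125, 125 and 128 FPKM in shSLC1A5. HNRNPA3, a close relative with similar binding, was at 132, 128 and 131 FPKM and then at 120, 121 and 121 FPKM. In both genes the groups are apart. They fell by 8.09% and 8.31%, with log2 fold changes of -0.12 ± 0.021 (adjusted p 9.14e-04) and -0.13 ± 0.018 (adjusted p 2.88e-04). With the GC and length correction neither passed, at -0.06 (adjusted p 0.0641) and -0.05 (adjusted p 0.0615), and no other alternative took these calls away.

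HNRNPA0, a member of this family encoded by a gene with a single coding exon, went the other way. It was at 14, 14.1 and 13.8 FPKM in shControl and at 16.3, 16.7 and 16.0 FPKM in shSLC1A5, with no overlap. It rose by 16.1%, a log2 fold change of 0.21 ± 0.026 with an adjusted p of 1.01e-04, and of 0.27 after the correction (adjusted p 1.49e-05). HNRNPAB, a CArG-box binding protein, stood at 148 ± 2.74 FPKM in shControl and 147 ± 1.77 FPKM in shSLC1A5 (SD, n = 3), with an adjusted p of 0.623.

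HNRNPA1 has many processed copies in the genome, and reads of a copy can be assigned to the parent or the reverse. How multiply matching reads were counted is not given in the sources used here. Its 37 pseudogene rows held 4.08% to 4.68% as many counts as HNRNPA1 itself. Of all windows of 150 bases, the read length, 13.2% in HNRNPA1L2, 19.4% in HNRNPA1P48, 30.1% in HNRNPA1P10 and 61.8% in HNRNPA1P7 were identical to some part of an HNRNPA1 transcript. HNRNPA1L2 itself was at 4.49 ± 0.654 FPKM in shControl and 4.21 ± 0.302 FPKM in shSLC1A5 (SD, n = 3), with an adjusted p of 0.595. When the counts of copies were added to their parents, HNRNPA1 kept a log2 fold change of -0.16.

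The hnRNP H/F family, whose proteins bind runs of G, was split. HNRNPH3 (ENSG00000096746, chr10:68331174-68342273, plus strand) had the largest fall of any hnRNP gene, from 35.9, 34.8 and 34.6 FPKM to 29.7, 30.3 and 30.2 FPKM. Its groups are well apart. The mean fell by 15.2%, a log2 fold change of -0.24 ± 0.024 with an adjusted p of 3.12e-05, and of -0.16 after the correction (adjusted p 6.29e-04). HNRNPH1 fell by 0.05 on the log2 scale, from 53.0 ± 0.341 to 51.7 ± 0.132 FPKM (adjusted p 0.0297), and was at 0.02 after the correction (adjusted p 0.318). The call on HNRNPH1 held in 2 of the 6 fits that leave out a library, those without shControl library 2 or 3. HNRNPF was at 57.3 ± 2.73 and 61.2 ± 1.57 FPKM and did not pass (adjusted p 0.0569). It passed as higher without shControl library 3 (adjusted p 0.00665) and, at 0.13, after the correction (adjusted p 0.00795). HNRNPF also passed with DESeq2, with genes averaging 5 FPKM or more, with protein-coding genes alone, with quantile normalization and with a replicate block.

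HNRNPH2 (ENSG00000126945, chrX:101408222-101414133, plus strand) had one of the largest rises, from 21.1, 20.9 and 23.6 FPKM to 26.0, 23.9 and 26.8 FPKM. The groups do not overlap, but shSLC1A5 library 2 lay only just above shControl library 3. The log2 fold change was 0.21 ± 0.057 with an adjusted p of 0.0137, and it did not pass without shControl library 1 or without shControl library 2 (adjusted p up to 0.0524 when 1 library was left out).

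This rise was not kept when the counts of an overlapping row were added. How reads were divided between the rows was not tested. The table also lists RPL36A-HNRNPH2, a read-through gene on the same strand that shares 16.28% of the exonic bases of HNRNPH2. That row held 1061, 1027 and 923 counts in the shControl libraries and 27, 1019 and 11 counts in the shSLC1A5 libraries. It was thus nearly empty in shSLC1A5 libraries 1 and 3, which were the libraries with the highest HNRNPH2 level. HNRNPH2 and the read-through row together came to 71.46, 70.21 and 76.27 CPM (counts scaled to the library total) in shControl and to 67.77, 76.42 and 69.05 in shSLC1A5, which overlap. With the rows added the log2 fold change of HNRNPH2 was -0.04 ± 0.052 with an adjusted p of 0.543. Only part of the read-through row lies over HNRNPH2, and which of its reads came from HNRNPH2 is not known. The sum therefore does not show that HNRNPH2 was unchanged.

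**Figure D4:**
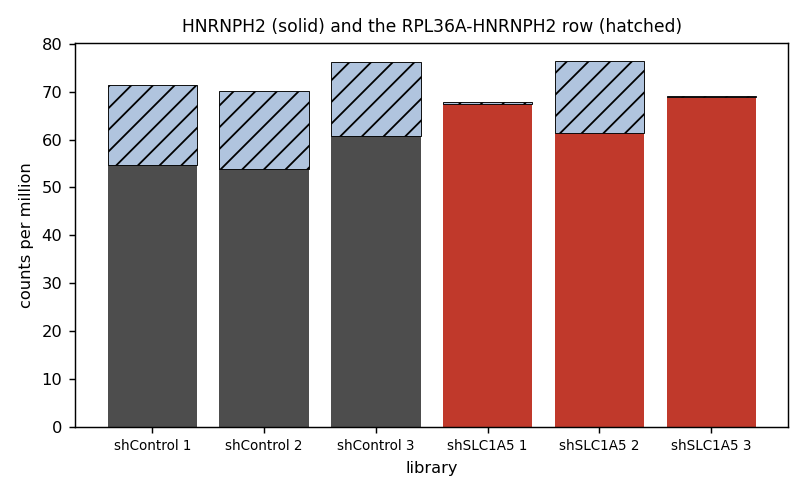
CPM in each of the 6 libraries for HNRNPH2 (solid) with the read-through row RPL36A-HNRNPH2 stacked above it (hatched). The solid bars are higher in shSLC1A5, while the whole bars overlap between groups, at 70.21 to 76.27 in shControl and 67.77 to 76.42 in shSLC1A5.

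The windows before a transcription start of 5 hnRNP genes whose levels are given above are taken from RefSeq on GRCh38.p14, 120 bases before to 30 bases from the start, 5′ to 3′ on the gene's strand. Capitals mark matches, on either strand, to the E-box CACGTG, which proteins of the MYC and MAX family can bind, to the CCAAT box or to the GC box GGGCGG. They set genes called lower in the uncorrected fit (HNRNPA2B1, HNRNPA3 and HNRNPH3) beside genes called higher in it (HNRNPA0 and HNRNPH2), with the limits on HNRNPA2B1, HNRNPA3 and HNRNPH2 stated above. HNRNPH3 has 3 RefSeq starts, and the window shown is the one with an E-box. Of the others, the window at chr10:68331944-68332093 holds only a GC box and that at chr10:68332693-68332842 holds no match.
HNRNPA2B1, chr7:26200717-26200866, minus strand: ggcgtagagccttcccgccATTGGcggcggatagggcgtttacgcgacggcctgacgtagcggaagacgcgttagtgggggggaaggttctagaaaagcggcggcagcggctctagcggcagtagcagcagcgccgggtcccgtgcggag
HNRNPA3, chr2:177212674-177212823, plus strand: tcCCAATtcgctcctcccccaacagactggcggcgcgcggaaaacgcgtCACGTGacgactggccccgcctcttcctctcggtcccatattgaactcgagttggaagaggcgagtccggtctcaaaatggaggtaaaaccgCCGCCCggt
HNRNPH3, chr10:68331573-68331722, plus strand: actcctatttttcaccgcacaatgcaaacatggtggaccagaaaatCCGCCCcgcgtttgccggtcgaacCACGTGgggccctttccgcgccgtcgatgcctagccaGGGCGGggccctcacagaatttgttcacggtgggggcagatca
HNRNPA0, chr5:137754334-137754483, minus strand: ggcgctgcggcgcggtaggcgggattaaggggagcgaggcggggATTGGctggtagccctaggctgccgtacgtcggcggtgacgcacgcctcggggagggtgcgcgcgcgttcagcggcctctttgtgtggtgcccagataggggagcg
HNRNPH2, chrX:101408102-101408251, plus strand: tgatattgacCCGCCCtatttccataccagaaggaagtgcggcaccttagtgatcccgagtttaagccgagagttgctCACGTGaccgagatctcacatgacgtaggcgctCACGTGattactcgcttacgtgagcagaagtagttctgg
RefSeq windows of 250 bases before to 50 bases after a start were matched for 36 of the 39 members, 53 windows in all. The E-box was in 8 of these, or 15.1%, against 7.26% of all 35116 windows and 9.53% of windows of tested genes. Its 7 genes are HNRNPA3, HNRNPD, HNRNPDL, HNRNPH2, HNRNPH3, HNRNPM and HNRNPUL1. In the uncorrected fit HNRNPA3 and HNRNPH3 fell, HNRNPM rose, HNRNPH2 rose before the read-through row was added, and the others were not called. After the correction HNRNPA3 and HNRNPM were not called, and HNRNPD and HNRNPDL were called higher. The CCAAT box was in 45.3% of member windows, against 34.6% of all and 35.1% of those of tested genes. For the GC box these shares were 62.3%, 45.0% and 67.7%, and for the TATA box letters TATAAA 11.3%, 11.5% and 5.92%. The ETS letters CCGGAAGT were in 5.66%, 4.14% and 8.35%.

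Of the other hnRNP genes, HNRNPK and HNRNPC were lower. HNRNPK, which binds C-rich stretches through KH domains, was at 143, 139 and 142 FPKM in shControl and at 129, 137 and 133 FPKM in shSLC1A5. Its log2 fold change was -0.10 ± 0.021 with an adjusted p of 0.0034. HNRNPC, which binds U-tracts of nascent RNA, was at 62.3, 61.1 and 61.4 FPKM and then at 56.2, 58.9 and 59.7 FPKM, a log2 fold change of -0.09 ± 0.022 with an adjusted p of 0.00668. The groups do not overlap in either gene. After the GC and length correction both were at -0.02 and neither passed (adjusted p 0.45 and 0.577). The call on HNRNPC was also lost in both limma fits, without a filter and with quantile normalization.

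HNRNPM, a binder of GU-rich elements, rose from 44.2, 42.9 and 43.5 FPKM to 47.0, 48.3 and 47.9 FPKM. It was 8.68% higher with no overlap, a log2 fold change of 0.12 ± 0.021 with an adjusted p of 0.00123, and 0.06 after the correction (adjusted p 0.0641). HNRNPR fell by 0.06 on the log2 scale (adjusted p 0.0358), from 29.9 ± 0.208 to 29 ± 0.466 FPKM, and was at 0.01 after the correction (adjusted p 0.718). Its call held only without shControl library 3. HNRNPD (AUF1, a binder of AU-rich elements), its relative HNRNPDL and the nuclear scaffold gene HNRNPU did not pass, at 0.04, 0.05 and 0.02. All 3 were called higher after the correction, at 0.12, 0.11 and 0.08 with adjusted p of 0.00533, 0.00638 and 0.0131. HNRNPL, HNRNPLL and HNRNPUL1 did not pass in either fit, with uncorrected log2 fold changes from -0.06 to 0.05. HNRNPL passed without shControl library 1 (adjusted p 0.0345) and HNRNPUL1 without shControl library 3 (adjusted p 0.0298). HNRNPUL1 also passed with DESeq2, with genes averaging 5 FPKM or more and with quantile normalization.

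HNRNPUL2 did not pass, at 0.04 ± 0.034 (adjusted p 0.338). It shares 44.15% of its exonic bases with the same-strand read-through row HNRNPUL2-BSCL2, which held 577, 1250 and 0 counts in shControl and 2067, 712 and 1202 counts in shSLC1A5. With both rows added it was called higher, at 0.10 with an adjusted p of 0.0124. Over the hnRNP genes as a whole, 3 rose, 8 fell and 10 did not pass, and after the correction 6 were higher and 2 lower. That is 52.4% called and 38.1% lower, against 54.3% and 30.4% of genes averaging 10 FPKM or more, so the share called was near that of genes as abundant. After the correction 38.1% were called, against 39.5% of those genes. Without the correction the summed level of the hnRNP genes was 1273.87, 1241.25 and 1275.06 FPKM in shControl. In shSLC1A5 it was 1215.63, 1232.71 and 1237.97 FPKM. All shSLC1A5 libraries were lower, the nearest at 1237.97 against 1241.25 FPKM in shControl.

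Of the 11 SR genes, 3 rose and 2 fell, so 45.5% were called, against 39.2% of all genes and 54.3% of genes averaging 10 FPKM or more. SRSF2, also called SC35, which marks nuclear speckles and binds exonic enhancers, was at 84.7, 87.0 and 86.5 FPKM in shControl and at 95.6, 93.7 and 97.7 FPKM in shSLC1A5. All shSLC1A5 libraries were higher, and the mean rose by 10.1%. The log2 fold change was 0.14 ± 0.022 with an adjusted p of 5.99e-04, and 0.20 after the correction (adjusted p 6.78e-05). SRSF2 (chr17:76734115-76737333, minus strand) shares 36.66% of its exonic bases with MFSD11 on the opposite strand, and the strand setting of the counting is not given in the sources used here.

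SRSF1, the SR protein also known as SF2/ASF, rose by 5.18%, from 62.4, 64.9 and 63.1 FPKM to 65.8, 67.7 and 68.5 FPKM. Its log2 fold change was 0.07 ± 0.020 (adjusted p 0.0162), and 0.15 after the correction. The call was lost without shControl library 1 or without shSLC1A5 library 3, with adjusted p up to 0.064. It was also lost with filterByExpr and without a filter. SRSF1 shares 56.59% of its exonic bases with AC015813.2 on the same strand, a row of 122 to 383 counts per library. The call held when same-strand rows were added. SRSF9 was at 23.4 ± 1.43 FPKM in shControl and 25.8 ± 1.03 FPKM in shSLC1A5 (SD, n = 3), with overlapping libraries and an adjusted p of 0.0467. SRSF9 shares 46.18% of its exonic bases with GATC on the opposite strand, and its call was lost when shControl library 1 or 2 or shSLC1A5 library 1 or 2 was left out (adjusted p up to 0.174).

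SRSF8, the least abundant SR gene, fell from 4.48, 4.64 and 4.48 FPKM to 3.68, 4.14 and 3.8 FPKM. The groups do not overlap. Its log2 fold change was -0.24 ± 0.067 with an adjusted p of 0.0156, and -0.18 after the correction (adjusted p 0.0745). The call was lost without shControl library 2, shSLC1A5 library 1 or shSLC1A5 library 3 (adjusted p up to 0.0794). SRSF3, a regulator of its own poison exon, fell by 0.07 on the log2 scale (adjusted p 0.0299), from 42.9 ± 1.19 to 41.4 ± 0.391 FPKM with overlapping libraries, and was at 0.01 after the correction (adjusted p 0.725). The call on SRSF3 held only without shControl library 1 among the 6 fits that leave out a library. SRSF4, SRSF5, SRSF6, SRSF7, SRSF10 and SRSF11 did not pass, with log2 fold changes from -0.05 to 0.02. After the correction 4 SR genes were higher and 0 lower, SRSF11 being added at 0.10 (adjusted p 0.0407). That is 36.4% called, against 25.9% of all genes and 39.5% of genes averaging 10 FPKM or more. The shares called higher were 36.4%, 11.1% and 13.8%, and the shares called lower were 0%, 14.8% and 25.7%. Summed over the SR genes without the correction, the level was 383.21, 392.86 and 393.47 FPKM in shControl and 396.24, 403.51 and 405.6 FPKM in shSLC1A5.

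The TRA2 genes encode SR-like activators that bind GAA-rich enhancers. TRA2A fell by 11%, from 20.3, 18.9 and 19.7 FPKM to 18.2, 17.2 and 17.6 FPKM, with no overlap. Its log2 fold change was -0.17 ± 0.043 with an adjusted p of 0.00953, and -0.09 after the correction (adjusted p 0.146). TRA2B was at 17.8, 17.9 and 17.0 FPKM and then at 17.7, 17.7 and 17.3 FPKM, a log2 fold change of -0.02 ± 0.025 that did not pass (adjusted p 0.646). The difference between the fold changes of the 2 genes was not tested.

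The SRRM genes encode large scaffold proteins of the nuclear speckle. SRRM2 was at 43.5, 45.1 and 41.4 FPKM in shControl and at 45.5, 46.6 and 46.4 FPKM in shSLC1A5. It rose by 5.61%, at 0.08 ± 0.028 with an adjusted p of 0.0422, but the call held in only 1 of the 6 fits that leave out a library, the one without shControl library 2, and the value was -0.04 after the correction (adjusted p 0.131). SRRM1 was at 13.9, 14 and 13.7 FPKM and then at 13.4, 13.4 and 13.3 FPKM. Its libraries do not overlap, but it did not pass (log2 fold change -0.06 ± 0.028, adjusted p 0.0995).

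The PTBP genes encode repressors that bind polypyrimidine tracts. PTBP1 (ENSG00000011304, chr19:797075-812327, plus strand), the form of most dividing cells, was at 41.4, 40.8 and 41.0 FPKM in shControl and at 44.7, 44.8 and 45.7 FPKM in shSLC1A5. It was 8.71% higher with no overlap, a log2 fold change of 0.12 ± 0.020 with an adjusted p of 7.22e-04. At 61.7% GC it is the richest in GC of the members, and after the correction the sign turned, to -0.13 ± 0.022 with an adjusted p of 0.00117. No direction is therefore given for PTBP1. PTBP3 was at 11.2, 11.3 and 10.5 FPKM and then at 10.2, 10.4 and 9.74 FPKM, a log2 fold change of -0.13 ± 0.041 (adjusted p 0.0251), and of -0.07 after the correction (adjusted p 0.223). Its call was lost without shControl library 1, shControl library 2 or shSLC1A5 library 3. PTBP2, which replaces PTBP1 in neurons, was at 1.24, 1.3 and 1.36 FPKM and then at 1.16, 1.22 and 1.36 FPKM (adjusted p 0.476).

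Across the fits with another normalization, filter, tool, correction or added rows, and those that leave out a library, the calls on HNRNPA0, SRSF2, HNRNPA1 and HNRNPH3 were the 4 that held in every one. HNRNPA0 and SRSF2 were higher and HNRNPA1 and HNRNPH3 were lower. In the uncorrected fit their size was 10.1% to 16.1%. After the GC and length correction the log2 fold changes were 0.27 for HNRNPA0, 0.20 for SRSF2, -0.09 for HNRNPA1 and -0.16 for HNRNPH3.

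The members share an annotation that bears on what a gene-level value holds. By the transcript classes deposited with the counts, 29 of the 39 members, or 74.4%, have at least 1 transcript marked for nonsense-mediated decay. Of protein-coding genes tested, 41.9% have such a transcript. All 11 SR genes have one, and 57.1% of the 21 hnRNP genes do. Transcripts with a retained intron were annotated for 74.4% of members and 59.6% of protein-coding genes tested. The members' median level is above that of the genes they are set beside, and the part of level in these shares was not tested. Those members that have 1 coding exon in GENCODE 29, and so no intron within the coding sequence, are HNRNPA0, HNRNPA1L2, HNRNPF, HNRNPH2 and SRSF8. Among them HNRNPA0 rose and SRSF8 fell in the uncorrected fit, and HNRNPH2 rose before the read-through row was added. After the correction SRSF8 was not called and HNRNPF was called higher. Of all 505 genes tested with 1 coding exon, 22.6% rose and 14.5% fell, with a median log2 fold change of 0.039, against 21.8%, 20.8% and -0.007 in 9896 genes with more.

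The machinery that works with these proteins was counted in lists of the same pathway, to be read against 39.2% of all genes and 54.3% of genes averaging 10 FPKM or more called in the uncorrected fit, and 25.9% and 39.5% in the corrected one. Of 53 core spliceosome genes 9 rose and 19 fell, with a median log2 fold change of -0.057. The share called, 52.8%, was near that of genes as abundant. The U2 snRNP gene SF3A2 at 0.45 ± 0.043 (adjusted p 1.7e-05) and the U1 snRNP gene SNRNP70 at 0.27 ± 0.028 (adjusted p 3.05e-05) rose. BCAS2, of the PRPF19 complex, fell by 0.35 (adjusted p 1.89e-04) and PHF5A, of the SF3b complex, by 0.27 (adjusted p 6.49e-04). With the GC and length correction 1 core gene was higher and 15 lower, 30.2% in all. SF3A2 was then at 0.11 and SNRNP70 at 0.00, and neither passed, whereas BCAS2 and PHF5A still did, at -0.24 and -0.22.

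SR protein kinases and nuclear importers came to 11 genes, of which 2 rose and 4 fell (54.5% called). TNPO1, the importin that carries HNRNPA1 into the nucleus, fell by 0.32 (adjusted p 2.11e-06), from a mean of 52.0 to 42.1 FPKM, and was at -0.25 after the correction (adjusted p 1.36e-06). Its paralogue TNPO2 was called higher, at 0.24 (adjusted p 9.32e-04), and did not pass at 0.11 after the correction (adjusted p 0.0668). Of the kinases that phosphorylate SR proteins, CLK3 rose by 0.21 (adjusted p 0.00216) and CLK1 fell by 0.28 (adjusted p 0.0105). SRPK1 was also called lower, at -0.18 (adjusted p 0.00292), and still passed after the correction at -0.14 (adjusted p 0.018). CLK3 passed after the correction at 0.24 and CLK1 did not, at -0.19 (adjusted p 0.0772).

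Of 12 genes for hnRNP proteins with other names, 5 rose and 2 fell (58.3% called). DAZAP1 was at 0.30, CIRBP at 0.25, KHSRP at 0.20 and RALY at 0.17, with adjusted p from 5.08e-05 to 0.00295. DAZAP1 alone passed after the correction, at 0.27. Of 19 SR-related genes 4 rose and 5 fell (47.4% called). SUGP1 at 0.25, LUC7L3 at 0.19 and SUGP2 at 0.18 were higher, and RBM39, a U2AF-like factor, fell by 0.18 (adjusted p 5.3e-05). After the correction LUC7L3, SUGP2 and RBM39 still passed, at 0.25, 0.13 and -0.12, and SUGP1 did not (adjusted p 0.134).

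Among other regulators of alternative splicing, 19 of 27 listed genes were tested, and 2 rose and 6 fell (42.1% called). The muscleblind gene MBNL2 fell by 0.42 (adjusted p 4.41e-05), from a mean of 12.2 to 9.17 FPKM, which is more than any member moved, and was at -0.34 after the correction (adjusted p 2.11e-04). RBFOX2 fell by 0.13 (adjusted p 7.44e-04), and was at -0.10 after the correction (adjusted p 0.00575). RAVER1, a partner of PTBP1, was at 0.28 and RBM10 at 0.16 (adjusted p 8.73e-04 and 0.0139), and after the correction they were at 0.01 and -0.05 and neither passed. Of 15 genes of nonsense-mediated decay and the exon junction complex 1 rose and 4 fell (33.3% called). The helicase gene UPF1 was at 0.27 (adjusted p 3.26e-05) and did not pass after the correction, at 0.04 (adjusted p 0.301). SMG5 fell by 0.16 and passed after the correction at -0.31. MAGOHB and MAGOH, both exon junction subunits, were at -0.19 and -0.15 and did not pass after the correction (adjusted p 0.228 and 0.316).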

How the data were processed

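RNA was sequenced as read pairs of 150 bases, per the labels' protocols, and the submitters' processing notes name fastp, HISAT2 and StringTie. Build, annotation, strand setting and treatment of multiply matching reads: not given in the sources used here. The authors deposited counts per gene and library, per the file headers, and the authors also deposited FPKM. Titles gave each column its sample, and 0 columns stayed unmapped. GENCODE 29 has the IDs of 34674 of 35750 genes, of which 99.88% lie over that gene on GRCh38.

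Counts were tested with edgeR 4.0.16 in R 4.3.3: TMM, group alone, quasi-likelihood F tests, genes averaging 1 FPKM or more, and Benjamini-Hochberg adjustment over all 11841 genes, with a threshold of 0.05. The standard error is the log2 fold change divided by the square root of F. The correction for GC content and length used loess offsets (span 0.3) on the longest GENCODE 29 transcript. The script was tested on simulated data. Alternatives were DESeq2 1.42.0, limma 3.58.1 on log2(FPKM + 1) and log2(FPKM + 0.1), other filters and normalizations, a replicate block, and leaving out each library. Added rows of overlapping genes and of pseudogenes were alternatives chosen after seeing the data. Libraries of a group differed by 9.83 to 16.67 times counting noise as a mean over genes, so none repeated the counts of another. This does not tell separate cultures from separate preparations of the same culture.

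The members and lists were chosen with earlier results of these data known. Values per library are given for up to 14 called members without overlap, by size of the fold change, for the highest gene of each family and for every TRA2, SRRM and PTBP gene. The others are given by range and count, and members whose call depends on GC content are named. Up to 4 called genes are named per pathway list, and SRPK1 was added after its values were seen. HNRNPUL2, HNRNPAB, HNRNPL, HNRNPLL, HNRNPUL1 and HNRNPA1L2 were named after their values were seen, to account for every member. Some sequences are not reported here.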

Additional observations from a re-analysis of the deposited data

How the results depend on the processing

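With the GC and length correction the members' lower calls went from 12 to 3, hnRNP calls from 3 higher and 8 lower to 6 and 2, SR lower calls from 2 to 0, all genes higher from 2396 to 1319, and pathway list genes from 23 higher and 40 lower to 8 and 22. Of the 63 single genes, these were called in the uncorrected fit and turned in sign, with and without the replicate block: PTBP1 (-0.13), SRRM2 (-0.04), RBM10 (-0.05), SRSF3 (0.01), HNRNPR (0.01) and HNRNPH1 (0.02). Signs of genes not called there turned too. Over the SR genes, 6 lay below 0 without the correction and 1 with it. The labels do not state whether the replicate numbers pair the libraries. In their deviations from the group means, same-numbered libraries correlated at -0.151, 0.036 and -0.034, and the others at -0.116 to 0.122. With so few libraries per group these values cannot decide it. The replicate block alone gave 8 members higher and 11 lower, and for all genes higher 2311 and all genes lower 2159. With the block and the correction together, 5 members were lower, 6 hnRNP genes were higher and 4 lower, 0 SR genes were lower, 1237 of all genes were higher, and 10 pathway list genes were higher and 24 lower. Both limma fits gave 7 members, 5 hnRNP genes, 1 SR gene and 26 pathway list genes lower. Without a filter, 4 members were higher and 7 lower, 5 hnRNP genes were lower, 1 SR gene was higher and 1 lower, and 21 pathway list genes were lower. With filterByExpr 5 members and 1 SR gene were higher. With genes averaging 5 FPKM or more, 6 hnRNP genes were higher and 0 SR genes lower. DESeq2 gave 5 hnRNP genes higher. Quantile normalization gave 7 hnRNP genes higher and 5 lower, and 1 SR gene lower, and 12 members higher. With same-strand rows added HNRNPH2 was at -0.04. Leaving out 1 library gave 4 to 9 members higher and 7 to 11 lower, 2 to 5 hnRNP genes higher and 6 to 8 lower, 1 to 3 SR genes higher and 0 to 2 lower, and 19 to 23 pathway list genes higher and 25 to 36 lower; the fewest members higher came without shControl replicate 1 and the fewest lower without shSLC1A5 replicate 3. The cause of these changes was not tested. Median-of-ratios size factors, protein-coding genes alone and added pseudogene rows kept these counts within 1.5 times. Of 63 single genes, 25 lost and 5 gained a call with the GC and length correction, 12 lost one without a filter, and 8 lost one in each limma fit. HNRNPA1L2 had the fewest counts of the members, 365 to 498 per library, and the largest standard error, 0.14. The part of depth in that error was not tested.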
